A study of Mus musculus with 16 samples.

Results

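Cytosolic ribosomal protein genes encode the protein shell of the ribosome outside the mitochondria. The genes were taken from the table of raw counts as those of type protein_coding whose symbol is Rpl, Rps or Rplp followed by a number. Lowercase letters and then further digits could follow the number, and the Rps6k kinases were left out. The rule gave 85 of the 25054 genes in the table, of which 48 are named for the large subunit, 34 for the small subunit and 3 for the P stalk. They lie on 19 chromosomes. The symbols also took in Rps19bp1, Rps23rg1 and Rps27rt, which are not core ribosomal proteins, while core proteins such as Rpsa, Fau and Rack1 have other kinds of symbol and were followed as a separate list.

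The RNA came from 16 mouse osteosarcomas. All mice carried OsxCreERT2+/- with p53fl/fl and Rb1fl/fl, so that tamoxifen deletes both tumor suppressors in Osterix-expressing pre-osteoblasts, and the 8 tumors called KO were also Arid1afl/fl, while the 8 called WT were not. Tamoxifen was given into the peritoneum at 1 month of age at 400 µg per gram, and the mice were of both sexes and over 6 months old. The KO tumors came from 8 mice and the WT tumors from 4 mice, with 4 WT tumors from mouse N42 and 2 from N43, so p-values that treat the 8 WT tumors as independent are too small. A body site is given for WT tumors only, and 1 WT tumor is labeled lung.

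A ribosome needs its proteins in near equal numbers, and their mRNAs are among the most abundant in growing cells. Most of these mRNAs begin with a C followed by a run of pyrimidines, the 5' terminal oligopyrimidine (TOP) tract, through which mTOR and LARP1 control how much of the mRNA is translated, so that protein output can change with no change in mRNA level. The genes are also the main parents of processed pseudogenes in mammalian genomes, which are intronless copies of the mRNA that lie elsewhere in the genome and carry nearly the same sequence.

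Pyrimidine motifs were searched in the genome around the start sites. Such a motif can lie before the start, outside the mRNA, so the counts below are not counts of TOP tracts. RefSeq start-site sequences (GRCm38.p6) were matched to 65 of the 85 genes. The motif CTTTC, searched from 50 bases before to 50 bases after the start, stood on the gene's strand in 34 of the 65 (52.3%), against 14.6% of all 27025 symbols in the table of starts. On the other strand it stood in 9 of the 65 (13.8%), against 13.8% of all symbols. A run of at least 10 pyrimidines within 15 bases of the start was present in 21 of the 65 (32.3%) and in 6.25% of all symbols. CTTTCC, which contains the shorter motif, stood on the gene's strand in 32.3% of the 65 and 5.43% of all symbols, and on the other strand in 3.08% and 5.12%. The windows below run from 15 bases before the start to 15 bases after it, 5′ to 3′ on the gene's strand, with the longest pyrimidine run in capitals. Rpl35, Rps10 and Rplp2 are shown as examples of runs of at least 10 bases, and Rps2 and Rps3a1 because results below turn on these genes.
Rpl35 (large subunit, chr2:39005117-39005146, minus strand): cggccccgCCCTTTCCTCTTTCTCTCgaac
Rps10 (small subunit, chr17:27635230-27635259, minus strand): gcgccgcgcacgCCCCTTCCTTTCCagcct
Rplp2 (P stalk, chr7:141447636-141447665, plus strand): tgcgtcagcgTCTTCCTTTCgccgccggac
Rps2 (small subunit, chr17:24720048-24720077, plus strand): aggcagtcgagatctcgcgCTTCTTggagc
Rps3a1 (small subunit, chr3:86142654-86142683, minus strand): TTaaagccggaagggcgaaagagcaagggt
The run was 18 bases long in Rpl35, 13 in Rps10, 10 in Rplp2 and 6 in Rps2. In Rps3a1 it was 2 bases, which says only that no longer run lies in this window around the RefSeq start.

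The libraries of the 2 groups were unlike. KO libraries held 1109487 to 15059640 counts with a median of 5367670, and WT libraries 7806160 to 16962329 with a median of 14828153. Ribosomal RNA genes took 0.437% to 18.4% of the counts in KO and 0.0974% to 1.57% in WT. Arid1a was at 107 to 269.9 counts per 1000000 (CPM) in KO and 125 to 236 in WT (log2 fold change 0.16, SE 0.22, adjusted p = 0.715, edgeR). These are counts over the whole gene, which do not test the loss of a floxed exon. The summed CPM of 11 osteoblast genes ran from 449 to 43221 in KO and from 1860 to 55034 in WT. Skeletal muscle genes summed to 113891 CPM in Montana and 169348 in Oregon against at most 10150 in any WT tumor, salivary genes to 105357 in Prince, and lung genes to 11041 in Massa and 26347 in the WT lung tumor. Zelda had the highest sums of the 16 tumors for liver genes (1205 CPM), lymphoid genes (1822) and erythroid genes (1444). In WT, 8 of 10 macrophage genes were higher than in KO at an adjusted p under 0.05 by edgeR, against 2.15% of all genes. How these differences bear on the ribosomal protein genes was not tested beyond the values given beside each result.

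The ribosomal protein mRNAs as a whole did not separate the groups. Their summed level, after scaling by edgeR's trimmed mean of M values (TMM), ran from 9531 CPM (Medusa) through a median of 17228 to 26768 (Massa) in KO. In WT it ran from 11154 (N43 spine) through 16148 to 19414 (N42 L limb). The KO tumors thus reached both below and above all WT tumors, with 2.81-fold between the lowest and highest KO tumor and 1.74-fold between the lowest and highest WT tumor. Massa, with 26768, and Grilka, with 24342, were the 2 highest, and they were also the 2 shallowest libraries with the largest shares of ribosomal RNA, at 13.7% and 18.4%. As a share of all counts as deposited, without scaling, the order of the groups turned. The share was 0.825% to 2.51% with a median of 1.04% in KO, and 1.29% to 2.61% with a median of 1.87% in WT. Among counts of protein-coding genes alone the medians were 2.04% and 2.13%. The direction of the summed level therefore depends on what it is divided by. In bulk RNA, fewer cells of a type and less RNA per cell cannot be told apart.

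**Figure D1:**
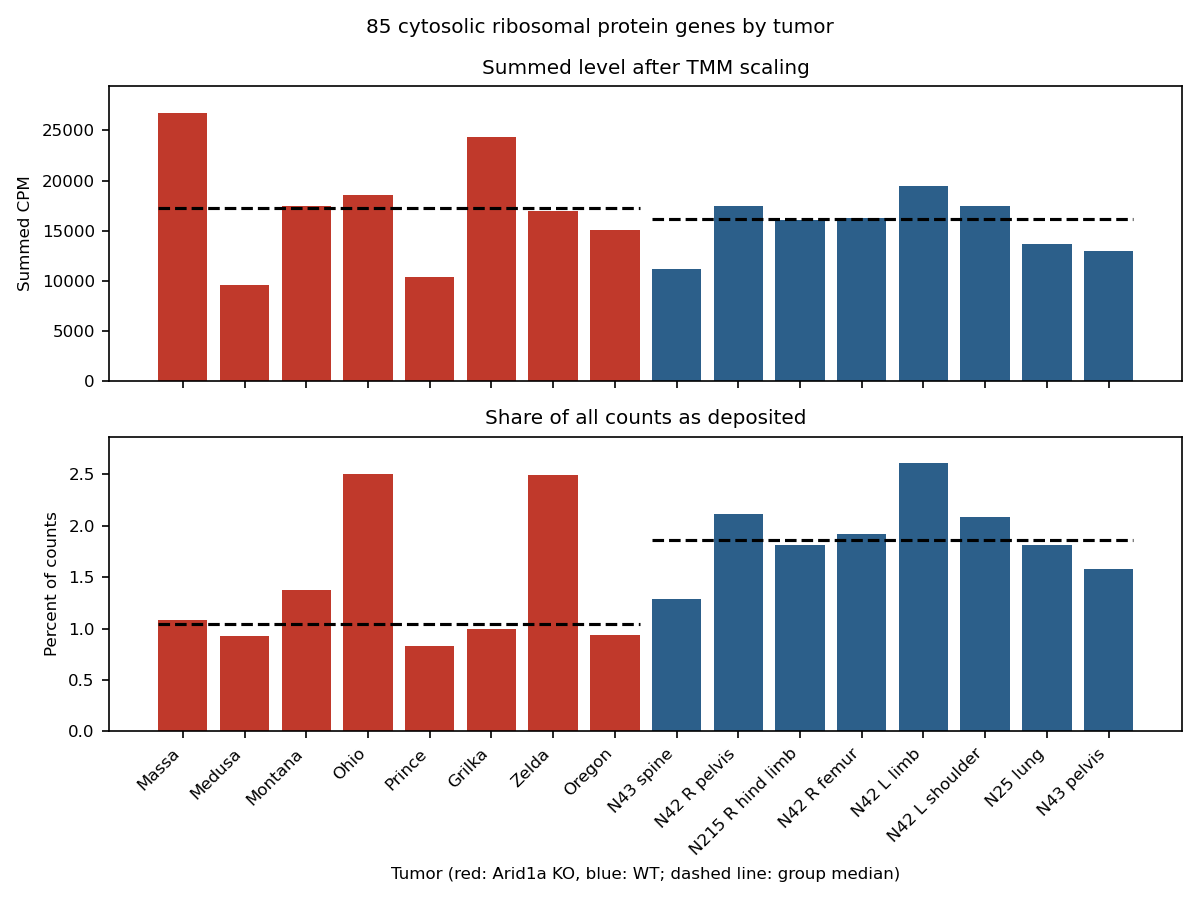
Summed level of the 85 ribosomal protein genes in each tumor, as CPM after TMM scaling (top) and as percent of all deposited counts (bottom), with dashed lines at the group medians. The KO medians are 17228 CPM and 1.04%, and the WT medians 16148 CPM and 1.87%, so the groups change order between the panels.

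Both subunits were present in similar proportion in all 16 tumors. Large subunit mRNAs summed to 5350 to 13715 CPM in KO and 6120 to 10209 in WT, and small subunit mRNAs to 3533 to 11224 in KO and 4231 to 7833 in WT. The ratio of the large to the small sum was 1.19 to 1.51 in KO and 1.28 to 1.45 in WT, with medians of 1.28 and 1.33. The spread of single genes within a tumor had a median of 0.48 over the KO tumors and 0.30 over the WT tumors on the log2 scale. Over the 80 genes with a mean of at least 20 CPM, the interquartile range of each gene's log2 difference from its median over the 16 tumors was 0.40 to 0.62 in the KO tumors and 0.18 to 0.51 in the WT tumors, ranges that overlap. Relations among these values were not tested.

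Gene by gene, the test used edgeR's quasi-likelihood model on all 15413 genes with enough counts, with Benjamini-Hochberg adjustment over all of them and a threshold of 0.05. Of the 85 genes 84 were tested. Rps23rg1, a retroposed gene derived from Rps23, failed the filter, with 0 to 0.830 CPM over the 16 tumors. Rpl29 was higher and Rps3a1 lower in KO, which is 2 of 84 (2.38%), against 4.01% of all genes tested. In one direction the background was 1.86% higher and 2.15% lower. At an unadjusted p under 0.05, 6 were higher and 2 lower, against 13.3% and 9.75% of all genes. By limma none of the 84 passed, against 0.0454% of all genes higher and 0.0649% lower. No ribosomal protein gene had groups that did not overlap, against 0.208% of all genes in each direction. The median log2 fold change of the 84 was 0.07, against 0.10 for all genes, and 52 of 84 lay above 0. Their standard errors had a median of 0.28, and 73 of 84 fold changes lay within 0.5 of 0 on the log2 scale. For 66 genes the 95% interval of the log2 fold change lay wholly between -1 and 1. These intervals come from the same fit, which treats the 8 WT tumors as independent, so they are too narrow. Without Massa and Grilka the median was -0.21 and 20 of 84 lay above 0. Without the 4 tumors of N42 the median was 0.31 and 79 of 84 lay above 0.

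**Figure D2:**
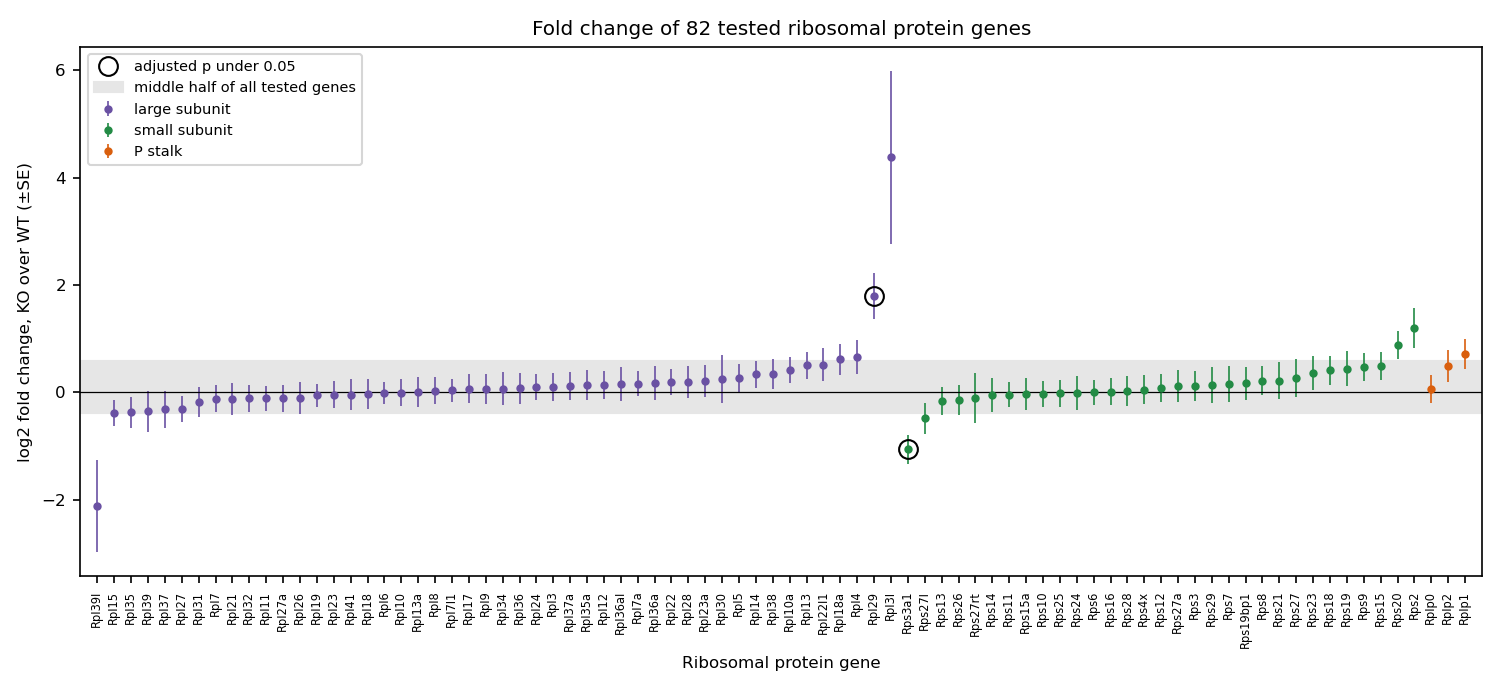
Log2 fold change of KO over WT with its standard error for 82 of the tested genes, ordered within large subunit, small subunit and P stalk. The gray band is the interquartile range of all tested genes, and the circles mark Rpl29 at 1.79 and Rps3a1 at -1.06, which passed the adjusted threshold.

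All 48 large subunit genes were tested, 29 of them had a log2 fold change above 0, and the median was 0.07. The most abundant was Rpl4, a core protein that reaches into the exit tunnel. It stood at 439 to 2096 CPM with a median of 705 in KO and at 321 to 721 with a median of 573 in WT. The KO tumors other than Grilka reached at most 787 CPM, and the log2 fold change was 0.65 (SE 0.32, adjusted p = 0.230), or 0.30 without Grilka. Rpl7, another large subunit protein, was at 180 to 546 CPM in KO and 264 to 459 in WT. The groups overlapped in both genes.

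Rpl29, a small basic protein on the surface of the large subunit, was the one member called higher. In KO it was at 203 CPM in Massa, 79.6 in Medusa, 56.4 in Montana, 178 in Ohio, 98.3 in Prince, 249.7 in Grilka, 58.3 in Zelda and 131 in Oregon. In WT it was at 69.3 in N43 spine, 93.6 in N43 pelvis, 23.2, 25.7, 27.5 and 26.8 in the 4 tumors of N42, 22.2 in N215 and 13.7 in N25. The tumors of WT mouse N43 lay among the KO tumors, and the other 6 WT tumors lay below all 8 KO tumors. The log2 fold change was 1.79 (SE 0.43, adjusted p = 0.0293). The call was lost when any of Grilka, Oregon and the 4 N42 tumors was left out (adjusted p = 0.0506 to 0.0711). It was also lost with counts summed per mouse (adjusted p = 0.394), with limma and the mouse as a random effect (0.218), with a covariate for ribosomal RNA (0.547) and without mouse N42 (0.586), while the fold change stayed between 1.06 and 2.13 over all 34 alternatives. In these 4 settings 10, 17, 7 and 8 of all genes tested passed, in this order, against 618 in the main fit.

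For the small subunit 33 genes were tested, 20 of them had a log2 fold change above 0, and the median was 0.08. Rps3a1, on the platform of the small subunit near the mRNA exit, was the one member called lower. Its levels in KO were 225 CPM in Massa, 121 in Medusa, 184 in Montana, 342 in Ohio, 97.8 in Prince, 301 in Grilka, 192 in Zelda and 143 in Oregon. In WT they were 322 in N43 spine, 376 in N43 pelvis, 439, 446, 560 and 434 in the N42 tumors, 411 in N215 and 367 in N25. Ohio overlapped N43 spine, and the other 7 KO tumors lay below every WT tumor. The log2 fold change was -1.06 (SE 0.27, adjusted p = 0.0366). It lost the call without any of Medusa, Montana, Oregon, N43 spine, N43 pelvis and the 4 N42 tumors (adjusted p = 0.0530 to 0.0727), with counts summed per mouse (0.575) and with limma (0.254). With counts summed per mouse 10 of all genes tested passed, and with limma 17.

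Rps2 and Rps20, also of the small subunit, had large differences that did not pass. Rps2, a core protein at the mRNA entry site, was at 188 to 760 CPM with a median of 540 in KO and at 98.1 to 327 with a median of 213 in WT (log2 fold change 1.19, SE 0.37, adjusted p = 0.0737). In 5 of 8 KO tumors it was above every WT tumor. Rps20, at the head of the small subunit, was at 93.0 to 372 CPM in KO and in the narrow range of 123 to 157 in WT (0.89, SE 0.26, adjusted p = 0.0618), with 6 KO tumors above and Prince below every WT tumor. Without Prince it passed (adjusted p = 0.0211), and without Zelda Rps2 passed (0.0444). Rps24 stood at 186 to 845 CPM in KO and 292 to 678 in WT, with a fold change of -0.01. By DESeq2 the calls higher in KO were Rpl29, Rps2, Rps20 and Rplp1, and the call lower was Rps3a1, that is 4 and 1 of the genes, against 7.76% and 4.77% of all genes.

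The 3 stalk genes encode the acidic arm that recruits translation factors. Rplp0, which anchors the arm, was at 399 to 1050 CPM in KO and 400 to 839 in WT (log2 fold change 0.06, SE 0.27, adjusted p = 0.922). Rplp1 was at 165 to 745 CPM with a median of 461 in KO and at 172 to 358 with a median of 261 in WT (0.72, SE 0.28, adjusted p = 0.145), with 5 KO tumors above all WT tumors. Rplp2, its partner in the dimer, was at 84.3 to 375 CPM in KO and 94.6 to 175 in WT (0.49, SE 0.30, adjusted p = 0.352). Scaled by exon length, the level of CPM per kb was highest for Rplp1, at 708 over the 16 tumors, against a median of 102 and a lowest value of 11.1 (Rpl7l1) over 79 members with a mean of at least 20 CPM and without Rpl3l. The length counts every annotated exon, retained introns included, which lowers the value of genes with many annotated transcripts.

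Core proteins with other symbols were also tested, among them Rpsa, Fau and Rack1. Rpsa had a log2 fold change of 0.09, Fau 0.27 and Rack1 -0.28, and none of them passed the threshold by edgeR or by DESeq2 or had an unadjusted p under 0.05.

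Both called genes have pseudogene copies. A copy was a gene of a pseudogene type whose sequence matched a ribosomal protein transcript at 90% identity or more over at least 100 bases. There were 314 copies, for 73 of the 85 genes. Of these 92 passed the filter. Of the 92, 7 were higher and 5 lower in KO by edgeR at an adjusted p under 0.05, against 1.86% and 2.15% of all genes. The 92 had a median log2 fold change of 0.10. Copies held 2.71% to 4.85% of the counts of genes plus copies in KO, and 2.28% to 3.57% in WT. With 50-base reads, stretches in which gene and copy are identical cannot be told apart, and the authors' counting kept the best alignment of a read that fits several places.

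The copy of Rps3a1 on chromosome 13, Rps3a3 (chr13:108670603-108671397, GRCm38, a single exon), was at 53.4 to 214 CPM in the 8 KO tumors and at 0.604 to 1.12 in the 8 WT tumors. A second copy, Rps3a2 on chromosome 14 (chr14:88123017-88123808), was at 7.18 to 37.9 CPM in KO and 1.04 to 2.42 in WT. The groups did not overlap for either copy. The strain background of the 2 groups is not in the labels, and its part in this split, and so in the call on Rps3a1, was not tested. The log2 fold changes were 7.42 (SE 0.37, adjusted p = 2.72e-09) and 3.46 (SE 0.36, adjusted p = 5.85e-05), and both passed in all 32 alternatives. Copies made up 36.5% to 52.8% of the Rps3a1 family in every KO tumor and 0.747% to 1.28% in every WT tumor. Summed over the gene and its 6 copies, the family stood at 362.5 ± 154 CPM in KO and 423 ± 71.2 in WT (SD, n = 8 each). With copies added to their genes in the fit, the log2 fold change of Rps3a1 was -0.22 (SE 0.27, adjusted p = 0.670), and the sum of the family did not pass the threshold.

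The coding sequence of Rps3a1 (chr3:86137940-86142702, minus strand) is 795 bases long and differs from Rps3a3 at 9 bases. Of the 746 windows of 50 bases in it, 370 (49.6%) are identical in Rps3a3. The stretch from base 201 to base 260, counted from the A of the start codon, is shown because it holds 2 of the differences, T216C and T260C, which are in capitals.
Rps3a1: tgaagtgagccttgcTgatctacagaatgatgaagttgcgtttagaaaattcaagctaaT
Rps3a3: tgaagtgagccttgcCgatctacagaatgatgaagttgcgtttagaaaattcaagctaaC
Both differences are the gene's base first and the copy's base last, from GENCODE vM21 transcripts. They are differences between 2 annotated sequences and were not read from the tumors.

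For Rpl29 the copies went the other way. Gm8210 (chr1:43189156-43189638) was at 0 to 2.58 CPM in KO and 0.659 to 8.69 in WT, with 4 of 8 KO libraries at 0 (log2 fold change -3.06, SE 0.79, adjusted p = 0.0395). Gm13841 had a median of 0.508 CPM and a highest value of 2.23 in KO, and a median of 3.29 and a highest value of 5.25 in WT (-2.18, SE 0.51, adjusted p = 0.0264). The groups overlapped in both copies, and N43 spine was the lowest WT tumor for each. Low KO values are limited by depth, since 3 counts equal 6.69 CPM in Massa and 4.03 in Grilka. Each copy differs from the 483-base coding sequence of Rpl29 (chr9:106429454-106431568, plus strand) at 3 bases, and 284 of 434 windows of 50 bases (65.4%) are identical. The stretch below, bases 13 to 72 of the coding sequence, shows how long the identical runs are, with the difference C72A in capitals.
Rpl29: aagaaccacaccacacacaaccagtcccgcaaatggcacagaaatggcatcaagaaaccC
Gm8210: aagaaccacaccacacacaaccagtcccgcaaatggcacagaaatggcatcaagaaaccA
With its 14 copies added, the Rpl29 family was at 140 ± 71.0 CPM in KO and 54.0 ± 26.7 in WT (SD, n = 8 each), and the log2 fold change was 1.37 (SE 0.35, adjusted p = 0.0376). The copies held a mean of 8.35 CPM in KO and 16.2 in WT, against 132 and 37.8 for Rpl29 itself.

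**Figure D3:**
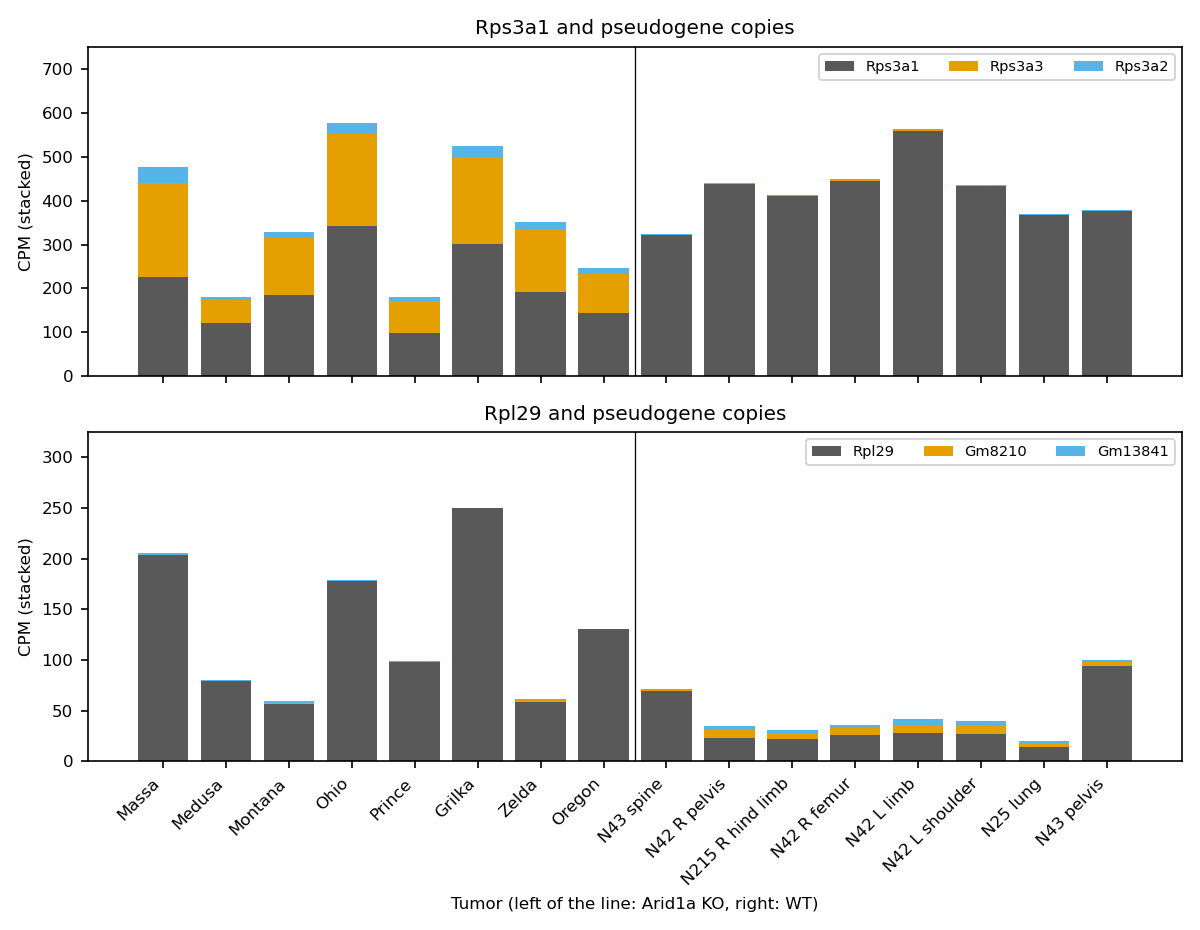
CPM of Rps3a1 with its copies Rps3a3 and Rps3a2 (top) and of Rpl29 with its copies Gm8210 and Gm13841 (bottom), stacked, in each tumor. Rps3a3 takes 53.4 to 214 CPM in KO tumors and at most 1.12 in WT, while Rpl29 is high in KO tumors and in the 2 WT tumors of N43.

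In the Rps2, Rplp0 and Rpl11 families the parent genes did not pass. Rps2-ps10, a copy of Rps2 that did not pass either, was at 0 to 2.69 CPM in 7 KO tumors and at 51.5 in Medusa, against 36.0 to 84.8 in WT (log2 fold change -2.97, SE 0.91, adjusted p = 0.0698). With the 18 copies added, the log2 fold change of Rps2 fell from 1.19 to 0.84 (adjusted p = 0.120). Gm8730 and Gm14165, copies of Rplp0, had medians of 3.67 and 0 CPM in KO and were at 21.8 to 44.8 and 3.29 to 7.97 in WT, without overlap between the groups (-2.81, SE 0.41, adjusted p = 0.00251, and -4.49, SE 0.90, adjusted p = 0.0126). Both lost the call with counts summed per mouse (adjusted p = 0.107 and 0.316), a setting in which 10 of all genes tested passed. The WT levels of Gm14165 lie near the floor of the shallow KO libraries, where 3 counts equal 6.69 CPM (Massa) and 4.03 (Grilka). Its lack of overlap is therefore limited by depth. Rplp0 itself had a log2 fold change of 0.06, and with its 4 copies added -0.01. Gm10036, a copy of Rpl11, was at 4.46 to 22.6 CPM in KO and 0.452 to 1.25 in WT (3.71, SE 0.38, adjusted p = 5.42e-05), while Rpl11 with its copies had a log2 fold change of -0.03. Rpl7l1 had the largest share of counts in matched pseudogenes, 41.8%, but all 12 matches were shorter than 150 bases. The share was 20.0% for Rpl29, 17.0% for Rps2, 10.8% for Rpl3 and 10.7% for Rps3a1. These shares pool the counts of all 16 tumors, in which the deeper WT libraries weigh more, and for Rps3a1 they lie between the WT and KO ranges given above.

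Paralogs can replace a ribosomal protein in certain tissues, and their ratio to the parent gene within a library needs no scaling between libraries. Rpl10l is not in the table of counts, so its ratio to Rpl10 was not tested. The other 7 of 8 pairs were tested by an exact permutation test over all splits of the tumors, two-sided, with adjustment over the 7. None passed. Rpl3l, the skeletal and heart muscle form of Rpl3, was at 125 CPM in Montana and 267 in Oregon, at 0 to 0.422 in the other 6 KO tumors and at 0.0568 to 8.73 in WT. In Oregon it exceeded Rpl3, at 105 CPM. These 2 tumors were those with the high sums of muscle genes, and the part of muscle in the value was not tested further. Without them the fitted log2 fold change turned from 4.38 (SE 1.61, adjusted p = 0.117) to -4.09 (adjusted p = 0.0726). The mean log2 ratio of Rpl3l to Rpl3 was -6.24 ± 4.48 in KO and -7.25 ± 2.10 in WT (SD, n = 8 each, exact permutation p = 0.565, adjusted p = 0.659).

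Rpl39l, a testis form of Rpl39 that is also known from tumors, was at 16.3 CPM in Ohio and 17.5 in Grilka, at 0 to 2.03 in the other 6 KO tumors, and at 2.26 (N25) to 44.5 (N42 L shoulder) in WT. In CPM the 6 lower KO tumors lay below every WT tumor, but Massa had 0 counts in a library where 3 counts equal 6.69 CPM. The log2 ratio of Rpl39l to Rpl39 was lower by 2.05 in KO, with a mean of -5.31 ± 1.88 in KO and -3.26 ± 1.43 in WT (SD, n = 8 each, exact permutation p = 0.0320, adjusted p = 0.112). The ratios of Massa (-5.69), Medusa (-5.56) and Oregon (-4.95) lay within the WT range of -5.97 to -1.43. Those of Montana, Prince and Zelda lay below it. With an offset of 0.5 counts in place of 2, the adjusted p was 0.0734, and per mouse it was 0.530. Rps4l, a paralog of Rps4x annotated as a transcribed pseudogene and so no member of the set, had a ratio higher by 1.99 in KO (exact permutation p = 0.0174, adjusted p = 0.112), with 7 of 8 KO tumors above the WT median. With counts summed per mouse the Rps4l ratio was higher by 1.47 (exact permutation p = 0.113, adjusted p = 0.530).

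The other 4 pairs differed little. The mean log2 ratio in KO minus that in WT was 0.30 for Rpl22l1 to Rpl22 (exact permutation p = 0.204), -0.47 for Rps27l to Rps27, a p53-responsive paralog (p = 0.241, exact permutation), 0.23 for Rpl7l1 to Rpl7 (p = 0.237, exact permutation) and 0.17 for Rpl36al to Rpl36a (p = 0.756, exact permutation), with adjusted p from 0.338 to 0.756. The SD was larger in KO than in WT for all 4, for example an SD of 1.02 against 0.27 for Rps27l to Rps27. In Prince this ratio was -0.62, with Rps27l at 42.5 CPM and Rps27 at 65.5.

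**Figure D4:**
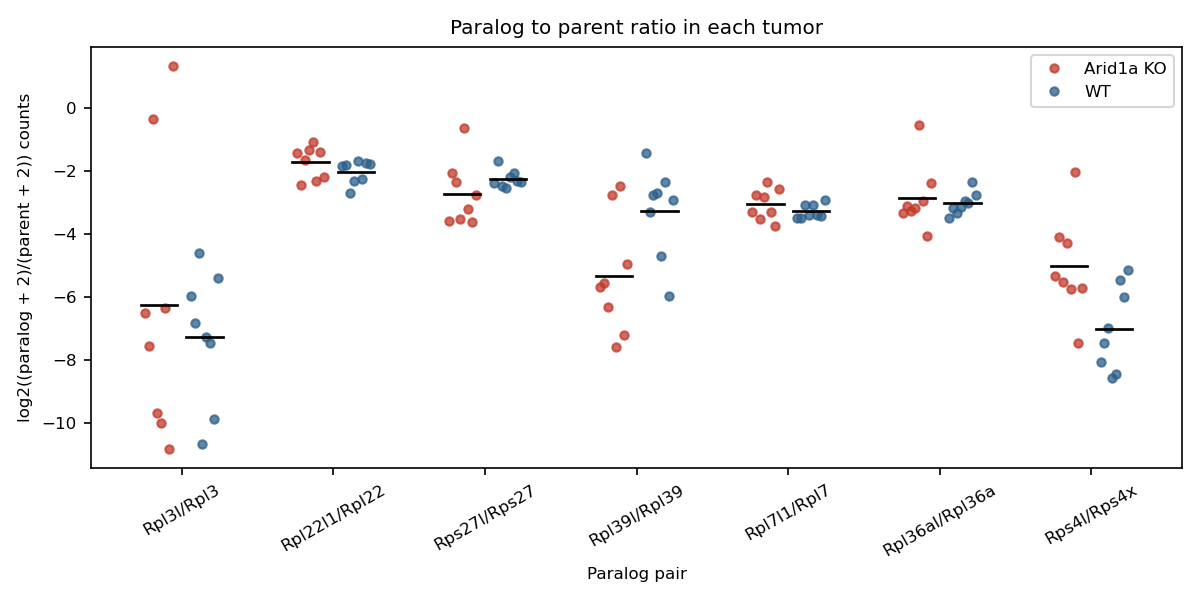
Log2 ratio of paralog to parent counts, each with 2 counts added, for the 7 tested pairs. Each point is a tumor (red KO, blue WT) and the bars are means. Rpl3l stands high in 2 KO tumors only. Rpl39l is below the WT median in 6 of 8 KO tumors, of which Montana, Prince and Zelda are below every WT tumor.

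Some tumors stood apart at a few of the genes. Among 1264 combinations of gene and tumor, for genes with a mean of at least 20 CPM and without Rpl3l, 8 differed from the tumor's median ribosomal protein gene by at least 1.5 on the log2 scale. These were chosen by their values, and so were the genes around them, which were followed as a description. Rpl30, which lies near the intersubunit face, was at 437 CPM in N42 L limb and at 62.0 to 339 elsewhere, 2.02 above its median over the 16 tumors. All 17 other protein-coding genes within 2 Mb of it on chromosome 15 were above their medians in this tumor, with a median of 1.96, while the medians of the same genes in the other 15 tumors ran from -1.13 to 0.44. Rpl37, 29.3 Mb from Rpl30 on the same chromosome, was at 344 CPM in this tumor and at most 185 elsewhere. Of the 16 genes around Rpl37, 13 were above their medians. Over all genes the median in this tumor was 0.03. Rpl4 in Grilka stood 1.76 above its own median over the 16 tumors. Measured from the median ribosomal protein gene of Grilka, which stood at 0.43, it did not reach the limit of 1.5. A further 5 combinations were Rpl29 in Grilka, N215, N42 R pelvis and N25, and Rps27l in Prince, where the genes around them had medians from -0.23 to 0.07.

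**Figure D5:**
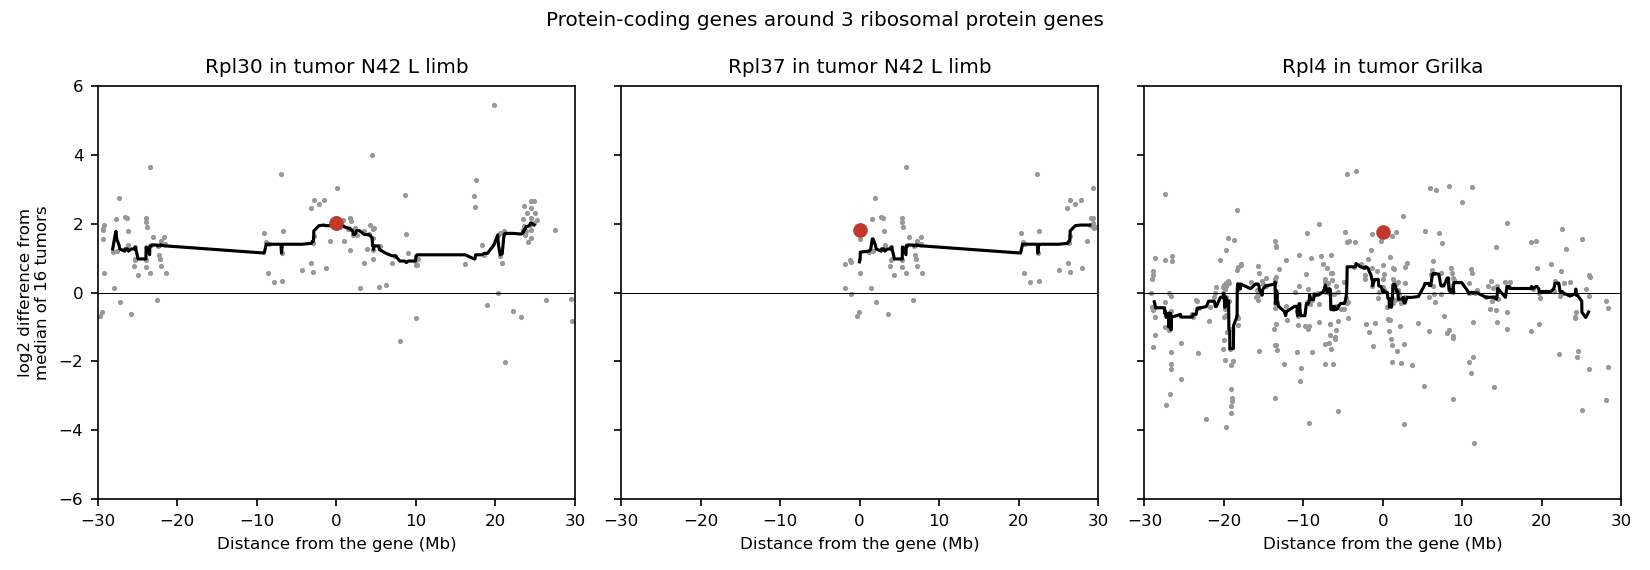
Log2 difference of protein-coding genes (gray) from their median over the 16 tumors, against the distance of their start from that of the ribosomal protein gene (red), with a running median of 15 genes (black). Around Rpl30 and Rpl37 in N42 L limb most neighboring genes lie above 0, and around Rpl4 in Grilka they lie on both sides of 0.

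Many ribosomal protein genes carry small nucleolar RNA genes in their introns. The 29 hosts, with 55 such genes, had a median log2 fold change of 0.08, and the 55 tested members without one had 0.07.

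Other genes of ribosome production and translation were followed as lists. Of 83 ribosome biogenesis genes 69 had a log2 fold change above 0, with a median of 0.43, against 55.9% of all genes above 0, and 27 had an unadjusted p under 0.05 higher in KO and 0 lower, against 13.3% and 9.75% of all genes. After adjustment 1 passed higher in KO, which is 1.2% of the 83, against 1.86% of all genes. It was Noc2l, which moves pre-ribosomes and had a median of 81.5 CPM and a highest value of 598 in KO, and a median of 38.1 and a highest value of 87.6 in WT (1.90, SE 0.51, adjusted p = 0.0444). Ncl and Ubtf, the nucleolar protein nucleolin and the RNA polymerase I factor, had 0.70 and 0.67 and did not pass. Of 33 initiation genes 2 passed higher in KO, against 1.86% of all genes. They were Eif3a (1.20, SE 0.29, adjusted p = 0.0299), the largest subunit of eIF3, with all KO tumors at 269 to 941 CPM and all WT tumors at 129 to 244, and Eif5b (0.89, SE 0.23, adjusted p = 0.0395), which joins the subunits. Noc2l lost its call without any of 11 libraries (Medusa, Ohio, Grilka, Oregon and every WT tumor except N215), Eif3a without N43 spine, N42 R pelvis, N42 R femur or N42 L shoulder, and Eif5b without any of Medusa, Montana, Grilka, Oregon, N43 spine, N43 pelvis and the 4 N42 tumors, with adjusted p up to 0.0936, 0.0724 and 0.0885. With the ribosomal RNA covariate the fold changes were 0.73, 0.62 and 0.20. With counts summed per mouse none of the 3 passed (adjusted p = 0.596, 0.437 and 0.596 by edgeR), and 10 of all genes tested did.

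No gene passed among 10 elongation genes, 17 other genes with a TOP mRNA and 15 tested regulators by edgeR, with medians of 0.28, 0.17 and 0.31. By DESeq2 1 gene of each list passed, higher in KO, against 7.76% of all genes. By edgeR 2 of each had an unadjusted p under 0.05, all higher in KO, against 13.3% of all genes. Eef1a1 and Eef2, the most abundant elongation factors, had log2 fold changes of 0.02 and 0.31, and Larp1, which binds TOP mRNAs, had 0.65 (SE 0.28, adjusted p = 0.178). Mitochondrial ribosomal proteins, made by a separate gene family, had a median of 0.27 over 77 tested genes, with 56 above 0. Mrpl24 passed higher in KO (0.76, SE 0.18, adjusted p = 0.0281), which is 1.3% of the 77, against 1.86% of all genes. It lost its call without any of Montana, Oregon, N43 spine and the 4 N42 tumors (adjusted p = 0.0518 to 0.0731). The call was also lost with counts summed per mouse (0.529), where 10 of all genes passed, and without mouse N42 (0.583), where 8 passed. Beside these lists the cytosolic ribosomal protein genes, at 0.07, had the lower median, and differences between lists were not tested.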

How the data were processed

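RNA of 16 tumors was ribosomal RNA depleted and sequenced with 50-cycle end reads. Per the labels, the authors' processing notes name Novoalign 2.08.01, DESeq2 1.26.0 and the build mm10. The study's methods describe gene counting with USeq on Ensembl models. The authors deposited raw counts per gene, not normalized, in a table of 25054 genes.

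Genes that passed edgeR's filterByExpr (minimum count 10, minimum total 15) were tested, 15413 in all, with TMM factors and edgeR 4.0.16 quasi-likelihood in a fit of 8 KO against 8 WT tumors, with Benjamini-Hochberg adjustment over all of them and a threshold of 0.05. Library totals ran from 1109487 to 16962329 counts, and a count of 3 equals 0.146 to 6.69 CPM. CPM are per 1000000 TMM-scaled counts. The biological coefficient of variation was 70.4%. P-values of this fit rest on the spread between these tumors, with WT tumors of the same mouse counted as independent.

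Results for a few genes are not reported here, although sums, medians and counts include them. The genes and lists were chosen with earlier results of these data known. The rule for named genes took members past the threshold, the 8 largest fold changes, the 5 most abundant, the stalk genes, paralog pairs, genes that failed the filter, core proteins with other symbols, the 5 families with the largest share in copies, the 5 copies of smallest adjusted p, and up to 3 abundant and 3 called genes of each list. Genes with a tumor standing apart, their neighbors, Rps2-ps10, Gm8210, Gm13841, Ubtf, Larp1 and the genes of the printed start sites were chosen after their values were seen.

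Pseudogene copies were found with BLAST 2.17.0 on GENCODE vM21 transcripts (GRCm38) at 90% identity over 100 bases. Paralog ratios used 2 added counts and an exact permutation test over tumors. Alternatives were DESeq2 1.42.0, limma 3.58.1 with the mouse as a random effect, sums per mouse, other scalings and filters, covariates, libraries left out, and copies added to their genes. Software was R 4.3.3, Python 3.11.15, numpy 2.4.6, pandas 2.3.3, scipy 1.17.1 and matplotlib 3.10.9.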

Additional observations from a re-analysis of the deposited data

Results flagged for a closer look

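Of 156 groups of tumors (78 genes with a mean of at least 20 CPM, 2 groups each), 6 held a tumor whose gap to the nearest other tumor, divided by the range of the group on the log2 scale, was above Dixon's 95% limit for 8 samples. Chance alone flags about 1 in 20 groups of 8 independent tumors, and 6 of 156 is below that rate. WT tumors of the same mouse are not independent. In KO, Grilka was the highest tumor for Rpl4, at 2096 CPM. In WT, N42 L limb was the highest for Rpl30, at 437 CPM, and for Rpl37, at 344 CPM, and N215 R hind limb was the highest for Rps18, at 243 CPM. N43 spine was the lowest WT tumor for Rpl23, at 104 CPM and for Rps19, at 122 CPM. N43 spine also had the lowest summed level among WT tumors, 11154 CPM, and the part of this in the 2 low values was not tested.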

How the results depend on the processing

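The counts of members called rest on 2 genes. The 1 call higher in KO became 4 under DESeq2, 2 without Prince and with the muscle covariate, and 0 under limma, sums per mouse, 1 tumor per mouse, without N42, without Massa and Grilka, and with covariates for ribosomal RNA or library size. The 1 call lower became 0 under upper quartile scaling, limma, sums per mouse, 1 tumor per mouse, without N42, without Montana and Oregon, with either of these covariates, and with copies added at 90% or 95% identity. Leaving out 1 tumor gave 0 to 2 calls higher and 0 to 1 lower. The calls over all genes changed with the setting too. They numbered 618 in the main fit, 2517 under DESeq2, 17 under limma, 10 with sums per mouse and 15 with 1 tumor per mouse. There were 8 without N42, 7 with the ribosomal RNA covariate and 84 with the library size covariate. Without Massa and Grilka there were 890, and with 1 tumor left out 252 to 1348. Of the copies, 7 were higher, against 23 under DESeq2, 3 under limma and with the ribosomal RNA covariate, and 4 without N42, without Montana and Oregon and with the library size covariate. There were 5 lower, against 9 under DESeq2, 3 under limma and without Prince, 2 with library size, and 0 per mouse, with 1 tumor per mouse, without N42 and with ribosomal RNA. Leaving out 1 tumor gave 5 to 12 copies higher (12 without Massa, 11 without N215) and 2 to 7 lower (3 without Prince or Oregon, 2 without each N42 tumor).

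The log2 ratio of the group medians of the summed level was 0.09 after TMM and -0.84 as a share of all counts. Among the genes followed through the alternatives, the log2 fold change reversed for Rpl3l (-0.31 under limma, -4.09 without Montana and Oregon) and Rplp2 (-0.13 with library size). The median over the members also changed sign, from 0.07 with 52 of 84 above 0 in the main fit. It was -0.34 with library size (16 of 84 above 0), -0.06 under limma (34 of 84) and -0.08 without Massa (35 of 84). Its highest value was 0.31, without N42 (79 of 84). The causes were not tested. The library size covariate and the 95% limit were chosen after seeing the data. No paired analysis was possible because no mouse gave both KO and WT tumors.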
